A study of Schizosaccharomyces pombe with 27 samples.

Results

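Fission yeast (Schizosaccharomyces pombe) cells with 3 extra sets of the genes for DNA polymerase δ (Polδ) were compared with wild-type (WT) cells by polymerase usage sequencing (Pu-Seq) of DNA polymerase α (Polα). The comparison rested on 6 of the 27 samples of the series, chosen by strain: 3 samples of WT strain 1141 and 3 of 4×Polδ strain RZ116. After summing the 2 sequencing runs of experiment 1, these gave 4 libraries, one for each genotype in each of the 2 experiments. Both strains were h- and carried the same ade6 allele, leu1-32 and ura4-D18, the pol1 L850F allele that makes Polα leave more ribonucleotides, and a deletion of rnh201. The deletion was marked with kanR in WT and with hygR in 4×Polδ. The 4×Polδ strain also held 3 LoxP-LoxM3 cassettes on chromosome I, each with unmutated cdc1, cdc27, cdc6 and cdm1 and 1 marker, which was kanR, natR or ura4. All cultures were untreated and grew exponentially in YES medium. A strain with the ura4 cassette alone (2×Polδ, RZ68) shared the fit and is given beside the others where it carries a different set of cassettes. It also carried pol1 L850F and the hygR-marked rnh201 deletion. Strains for Polδ (WT 856, 4×Polδ RZ112) and Polε (WT 655, 4×Polδ RZ118) are given at some places. They also lacked rnh201 and carried a mutated cdc6 or cdc20, respectively, in place of the pol1 allele. In RZ112 the cdc6 of all 3 cassettes was mutated too. The ade6 allele of 655 is not specified. Each genotype was 1 strain per labelled polymerase, so a change particular to that isolate and an effect of its cassettes cannot be told apart.

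Polα works in a complex with primase and starts every new DNA chain with a short stretch, which Polδ then extends on the lagging strand, while Polε copies most of the leading strand. Polδ consists of the catalytic subunit Cdc6 and the accessory subunits Cdc1, Cdc27 and Cdm1, and Cdc27 binds the sliding clamp PCNA. Ribonucleotides that a mutated polymerase leaves in DNA persist when RNase H2 is missing, and Pu-Seq counts them on each strand. The Polα track of a bin is the top-strand count minus the bottom-strand count, divided by their sum. Because Polα serves mainly the lagging strand, its track is positive where forks move leftward and negative where they move rightward, and it falls through 0 at an origin. The comparison addressed whether more copies of the Polδ genes alter where Polα acts.

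The libraries held 38620929 and 16062711 counts in WT (experiments 1 and 2) and 43905303 and 17118324 in 4×Polδ. The median 300 bp bin held 872 and 379 counts in WT and 960 and 391 in 4×Polδ. Repeat sequencing of the experiment 1 libraries gave almost the same counts, with a chi-square per degree of freedom of 1.10 in both genotypes, against 24.5 and 23.7 between the experiments of WT and of 4×Polδ. The sources used here state that of 2 library sets one was made with a modified GLOE-Seq protocol but not which experiment that was, so the spread between experiments may hold that change of protocol. With 2 libraries against 2, a two-sided exact permutation test of a single value cannot give p below 0.333. Tests across many bins, windows or genes were made with edgeR or limma, which pool the spread over all 6 Polα libraries, at an adjusted p of 0.05. Since experiment numbers pair the libraries, the result with experiment as a block is given wherever it changes a call or a count.

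The genotypes were visible in the counts. The rnh201 gene kept a count density of 0.222 and 0.213 in WT and 0.205 and 0.204 in 4×Polδ, where 1 is the median 300 bp bin of the library. The ura4 gene, which makes an enzyme of uracil synthesis and is removed by ura4-D18, had a density of 0.00697 and 0 in WT. It had 0.961 and 1.10 in 4×Polδ, close to the median bin. The pol1 gene itself had 1.02 and 1.04 in WT and did not pass the test in 4×Polδ (log2 fold change -0.09, standard error 0.074, edgeR adjusted p = 1.00).

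All 4 Polδ genes had several times more counts in 4×Polδ than in WT. Relative to the mean of both WT libraries, cdc1 had 1.03 and 0.974 in WT and 3.63 and 3.96 in 4×Polδ. The same ratio for cdc27 was 1.13 and 0.865 in WT and 4.01 and 3.29 in 4×Polδ. For cdc6 it was 1.02 and 0.979 in WT and 3.61 and 3.53 in 4×Polδ, and for cdm1 1.02 and 0.984 against 4.21 and 3.64. At every one of these genes both 4×Polδ libraries lay above both WT libraries. Averaged over the 4 genes, the ratio was 3.73 ± 0.184 (SD, n = 2) in 4×Polδ against 1.00 ± 0.070 in WT (two-sided exact permutation test, p = 0.333, the smallest this design allows). The actin gene act1, which was not copied, had a ratio of 1.07 and 0.926 in WT and of 1.06 and 0.90 in 4×Polδ, so its groups overlapped.

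Of 12603 genes tested with edgeR, 0.119% were called (15 genes, of which 13 were higher in 4×Polδ). Without the block, cdc1 rose by 1.95 on the log2 scale (standard error 0.0723, adjusted p = 0.00486), cdc6 by 1.87 (standard error 0.0793, adjusted p = 0.00486) and cdm1 by 2.01 (standard error 0.131, adjusted p = 0.0149). At cdc27 the change was 1.90, its standard error of 0.207 was larger and its adjusted p was 0.0739, and it passed with the block (adjusted p = 3.12e-12). The other 10 higher genes lay in the same copied fragments. They included hen1, which overlaps cdc6 and cannot be told apart from it in these totals, with a log2 fold change of 1.86. They also included rnh1, the gene of RNase H1, which removes RNA from RNA-DNA hybrids, and whose density went from 0.973 and 0.856 to 2.47 and 2.49. The remaining protein-coding neighbours were sad1 beside cdm1 (log2 fold change 1.49), msm1 beside cdc1 (1.29) and esf1 beside cdc27 (0.90). Fits without 1 library lost most or all of these calls. Such a fit keeps only 1 library of a genotype, so a lost call does not measure how robust a gene is. The values of these neighbours cover whole genes, of which a cassette may hold only a part, and the share that was copied was not measured.

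**Figure D1:**
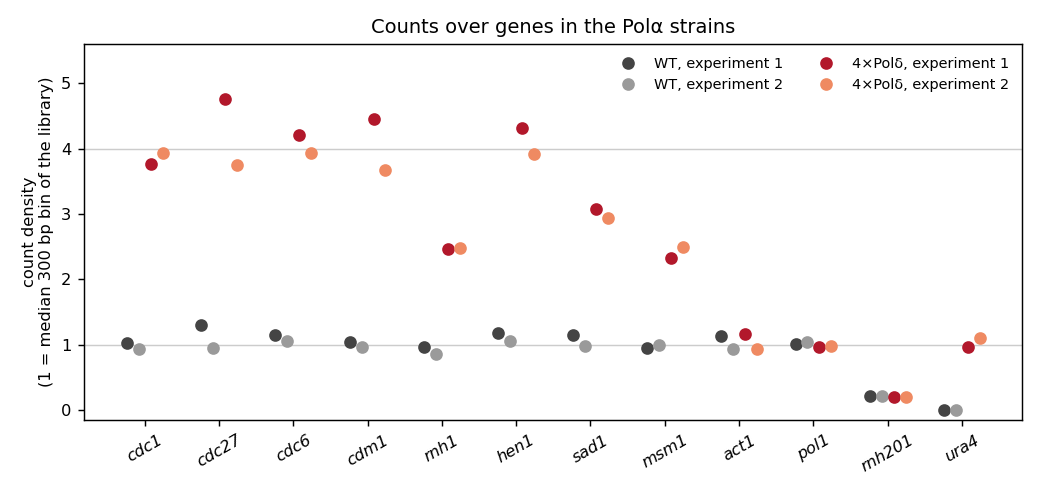
Count density over 12 genes (counts per base, set so that the median 300 bp bin of each library is 1) in the Polα strains; each point is 1 library, grey for WT and red or orange for 4×Polδ, with a darker point for experiment 1. The 4 Polδ genes lie near 4 in 4×Polδ and near 1 in WT, their neighbours rnh1, hen1, sad1 and msm1 lie between 2.32 and 4.31 in 4×Polδ, and act1, pol1 and rnh201 lie at about the same height in both genotypes.

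Reads from a cassette copy map to the native gene, so the counts added in 4×Polδ give the strand balance of the copies at all 3 sites together. At cdc1 the WT track was 0.558 and 0.524, while the counts added in 4×Polδ had a track of -0.384 and -0.427. At cdc27 the WT track was -0.356 and -0.265, and that of the added counts was 0.704 and 0.779. The sign was therefore turned at both genes, in both experiments. At cdc6 the track of the added counts, -0.591 and -0.625, had the sign of WT (-0.539 and -0.555), and at cdm1 it was 0.630 and 0.465 against 0.588 and 0.551 in WT. The deposited counts do not give the orientation of a copy.

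Other genes of the replication machinery showed little difference in count. A list of 64 genes (Polα-primase, Polδ, Polε, the CMG helicase and its partners, the clamp and its loaders, Okazaki fragment maturation, RNase H, RPA, fork protection, initiation, markers and act1) was read, of which 63 could be tested. Of these, 4 passed and were higher, namely cdc1, cdc6, cdm1 and rnh1, and 0 were lower, with a median log2 fold change of -0.01 over the list and -0.00 over all genes. With the block, 1.42% of all genes were called, and in the list cdc27 was added and rfc5, a subunit of the clamp loader, passed as lower (log2 fold change -0.22, adjusted p = 0.044). The density over rfc5 was 1.02 and 1.08 in WT and 0.886 and 0.931 in 4×Polδ, without overlap. The 4 Polε genes had log2 fold changes from -0.12 to 0.04 and the 4 genes of Polα-primase from -0.09 to -0.00, and 0 of either group passed with or without the block.

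Across the genome, the 4×Polδ track followed the WT track of the same experiment more closely than either followed its own genotype in the other experiment. Over 41883 bins, Pearson's r between 4×Polδ and WT was 0.982 in experiment 1 and 0.968 in experiment 2. Between the experiments it was 0.862 in WT and 0.860 in 4×Polδ. Neighbouring bins are not independent, and these values are descriptions. The track had opposite signs in WT and 4×Polδ in 5.50% of bins in experiment 1 and 7.41% in experiment 2, against 15.4% of bins between the 2 WT libraries.

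Around efficient origins the height of the Polα track was compared. Origins were called from the Polδ and Polε tracks of the WT strains, so that the Polα values did not choose them, and 268 had an efficiency of at least 40%. The mean track 0.9 to 3 kb to the left of these origins was 0.533 and 0.521 in WT and 0.521 and 0.527 in 4×Polδ. To the right it was -0.551 and -0.541 in WT and -0.529 and -0.545 in 4×Polδ. The amplitude, the mean of both heights, was 0.536 ± 0.008 (SD, n = 2) in WT and 0.530 ± 0.008 in 4×Polδ. The difference of -0.006 was smaller than either SD, and its sign differed between experiments (-0.017 and 0.005; two-sided exact permutation test, p = 0.667). From 3 to 6 kb away from the peak bin the amplitude was 0.429 and 0.424 in WT and 0.405 and 0.421 in 4×Polδ. There the differences were -0.0245 and -0.00249, and the groups did not overlap (exact permutation p = 0.333, the smallest possible). In 2×Polδ the amplitude was 0.656 and 0.580 from 0.9 to 3 kb and 0.534 and 0.483 from 3 to 6 kb. At both distances it lay above all 4 libraries compared here.

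**Figure D2:**
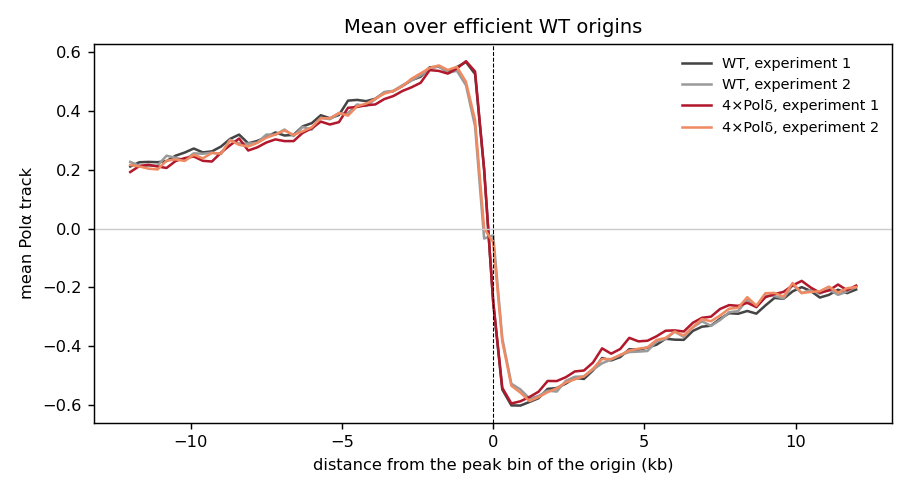
Mean Polα track (unitless, from -1 to 1) over 268 efficient WT origins against the distance from the peak bin in kb; each line is 1 library, grey for WT and red or orange for 4×Polδ. The 4 lines lie close together and change sign at the peak bin, with heights of 0.521 to 0.533 on the left and -0.529 to -0.551 on the right.

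Lagging-strand preference was also measured over the whole genome. In 12941 bins where the Polδ and Polε tracks of the WT strains agreed on one fork direction with a mean size over 0.5, the share of Polα counts on the lagging strand was 81.7% and 80.2% in WT and 80.3% and 79.9% in 4×Polδ. The mean difference was -0.931 percentage points (two-sided exact permutation test, p = 0.667, which ignores the pairing by experiment). The WT SD of 1.06 is the spread between experiments. Within experiments the share was lower in 4×Polδ both times, by 1.5 and 0.366 points. In the most strongly directional bins (size over 0.8, 187 bins), it was 91.5% and 89.7% in WT and 88.4% and 88.3% in 4×Polδ, without overlap (exact permutation p = 0.333, the smallest possible). The classes from 0.6 to 0.8 and up to 0.2 did not overlap either. The first had 84.8% and 83.2% in WT and 83.0% and 82.6% in 4×Polδ, and the second differed by -0.199 points on average. The classes from 0.2 to 0.4 and from 0.4 to 0.6 overlapped.

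Of 2582 origins, 0.0387% were called with limma, which is 1 origin. Its peak bin was chromosome III from 115201 to 115500, beside ura4, and its Polα efficiency (the fall of the smoothed track across the peak, in percent of a full change from 1 to -1) was 57.8% and 64.0% in WT. In the WT Polδ and Polε tracks that called it, the efficiency was 20.6%. The window from 114001 to 117000, which holds the bin, had a low density of 0.40 and 0.357 in WT. Whether origin activity changed there was not tested. In 4×Polδ the Polα efficiency was -1.43% and -7.30% (difference -65.3 points, standard error 3.85, limma adjusted p = 0.015). Fits without 1 library, which keep only 1 library of a genotype, lost the call. The same bin gave -2.55% and -8.71% in 2×Polδ, which also carries ura4 in a cassette, and counts over ura4 itself were near 0 in WT. With the block, 0.116% were called, and the other 2 origins lay in copied fragments, at the edge of cdc27 and in cdc1. Among the 268 efficient origins 0 were called with or without the block (13 of all 2582 origins had an unadjusted p under 0.05 without it). Their mean efficiency was 57.3% and 53.8% in WT and 56.3% and 54.6% in 4×Polδ. The 3 most efficient, on chromosome III from 1252801 and on chromosome I from 3952801 and from 4088101, had 77.1% to 85.5% in the 4 libraries. Origins of 20 to 40% had 26.3% and 21.9% in WT and 25.1% and 22.1% in 4×Polδ, and the mean of the 2094 weaker sites lay between -1.10% and 0.964% in the 4 libraries.

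In windows of 3 kb, a strand ratio was called with edgeR in 0.0716% of 4192 windows, and all 3 lay in copied fragments. The window of cdc27 (chromosome II, 1062001 to 1065000) went from a track of -0.473 and -0.381 in WT to 0.276 and 0.335 in 4×Polδ, with a log2 change of the strand ratio of 2.23 (standard error 0.217, adjusted p = 0.011). Its neighbour from 1059001 to 1062000, with cho1, esf1 and the start of cdc27, went from -0.193 and -0.258 to 0.417 and 0.298. The window of cdc1 (chromosome I, 4014001 to 4017000) went the other way, from 0.485 and 0.512 to -0.065 and -0.174. Fits without 1 library, which keep only 1 library of a genotype, lost some or all of these calls. In single bins 0 of 41883 were called, and 215 had an unadjusted p under 0.05. DESeq2 called 21 bins and 71 windows.

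With experiment as a block, 1.26% of windows were called, which is 53 windows, and they were unevenly placed. Of 103 windows within 50 kb of an integration site 22 were called, and of 103 within 50 kb of a chromosome end 19. A further 8 of 198 windows lay 50 to 150 kb from an end, 3 of 9 in copied fragments and 1 of 59 at a centromere, in the window of per1 beside centromere I. Of the 3701 windows elsewhere in the genome, 0 were called with the block. The same held for single bins, of which 0.37% were called with the block: 74 of 1000 near a site, against 10 of 37140 elsewhere.

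**Figure D3:**
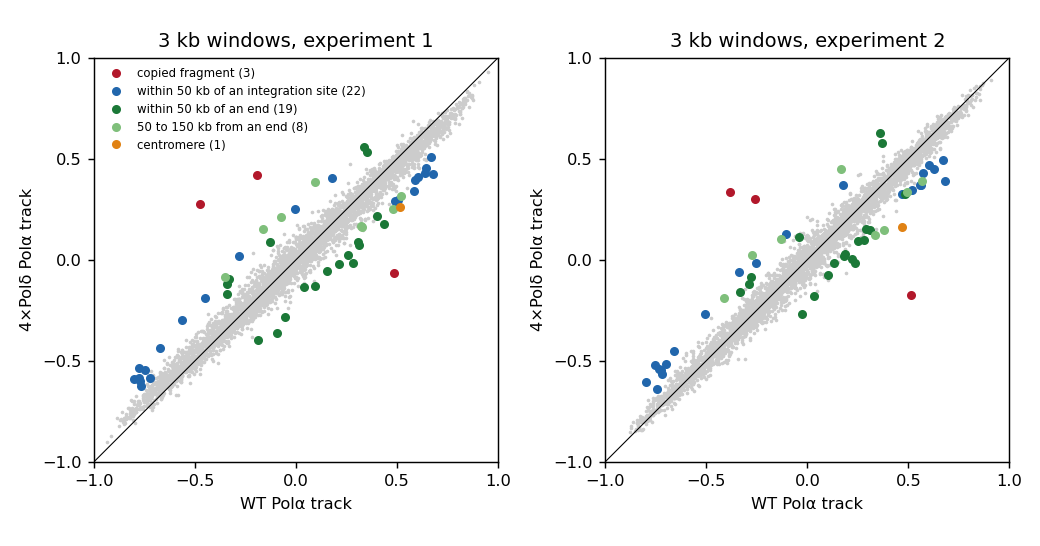
Polα track of 4×Polδ against that of WT in 3 kb windows, in experiment 1 (left) and experiment 2 (right); grey points are all windows, coloured points the 53 windows called with experiment as a block, by place, and the line marks equal tracks. Most windows lie along the line, while most called windows near integration sites are closer to 0 in 4×Polδ, and the 3 called windows of copied fragments have changed sign.

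Beside each cassette the Polα track lay closer to 0 in 4×Polδ over the first 24 kb on the side that faces away from the nearest origin. The kanR site (bin from 3324901 on chromosome I) has an origin of 75.0% efficiency 4.31 kb to its left. To its right, over the first 12 kb, the track was -0.757 and -0.735 in WT and -0.586 and -0.570 in 4×Polδ. From 12 to 24 kb it was -0.675 and -0.632 in WT and -0.434 and -0.413 in 4×Polδ. From 24 to 36 kb it changed sign, from -0.086 and -0.091 to 0.176 and 0.147, and from 36 to 48 kb it was 0.252 and 0.311 against 0.247 and 0.285. The point where the track crossed 0 lay 30.7 and 30.9 kb right of the site in WT and 27.0 and 28.1 kb in 4×Polδ.

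The natR and ura4 sites have their nearest origin on the right. Left of natR (bin from 4734001, origin of 70.8% at 5.54 kb), the track over the first 12 kb was 0.549 and 0.614 in WT and 0.426 and 0.479 in 4×Polδ. From 12 to 24 kb it was 0.507 and 0.477 against 0.350 and 0.355. Left of ura4 (bin from 5230801, origin of 69.8% at 2.72 kb), it was 0.625 and 0.611 against 0.413 and 0.405 over the first 12 kb. From 12 to 24 kb it was 0.310 and 0.270 against 0.161 and 0.096. In each of these stretches both 4×Polδ libraries lay closer to 0 than both WT libraries. The crossing left of ura4 that was nearest to the site lay at -29.5 and -26.1 kb in WT and at -22.3 and -19.8 kb in 4×Polδ. Left of natR the nearest crossing lay at -38.5 and -39.4 kb in WT and at -37.1 and -38.1 kb in 4×Polδ.

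On the side toward the origin the differences were smaller as a mean over 30 kb, a stretch that includes the origin. They were 0.043 and 0.031 at kanR, -0.051 and -0.061 at natR, and 0.034 and -0.016 at ura4. The track changes sign within these stretches, so opposite differences can cancel in the mean. Left of kanR the difference was 0.062 and 0.059 over the first 12 kb and -0.092 and -0.052 from 24 to 36 kb. Right of natR, however, the track from 24 to 36 kb was 0.045 and 0.087 in WT and -0.093 and -0.033 in 4×Polδ, and its crossing lay at 29.0 and 28.8 kb in WT and at 30.9 and 31.7 kb in 4×Polδ. Away from the origin the mean differences over 30 kb were 0.225 and 0.20 at kanR, -0.140 and -0.118 at natR, and -0.161 and -0.167 at ura4. With experiment as a block, edgeR called 12 of 17 windows away from the origin at kanR, 3 of 17 at natR and 5 of 17 at ura4. Toward the origin it called 1 of 16, 1 of 17 and 0 of 16. The called window right of natR began at 4734001, at tel2, and went from 0.588 and 0.557 in WT to 0.393 and 0.370 in 4×Polδ. Without the block 0 were called at any site, with smallest adjusted p of 0.109, 0.168 and 0.094.

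**Figure D4:**
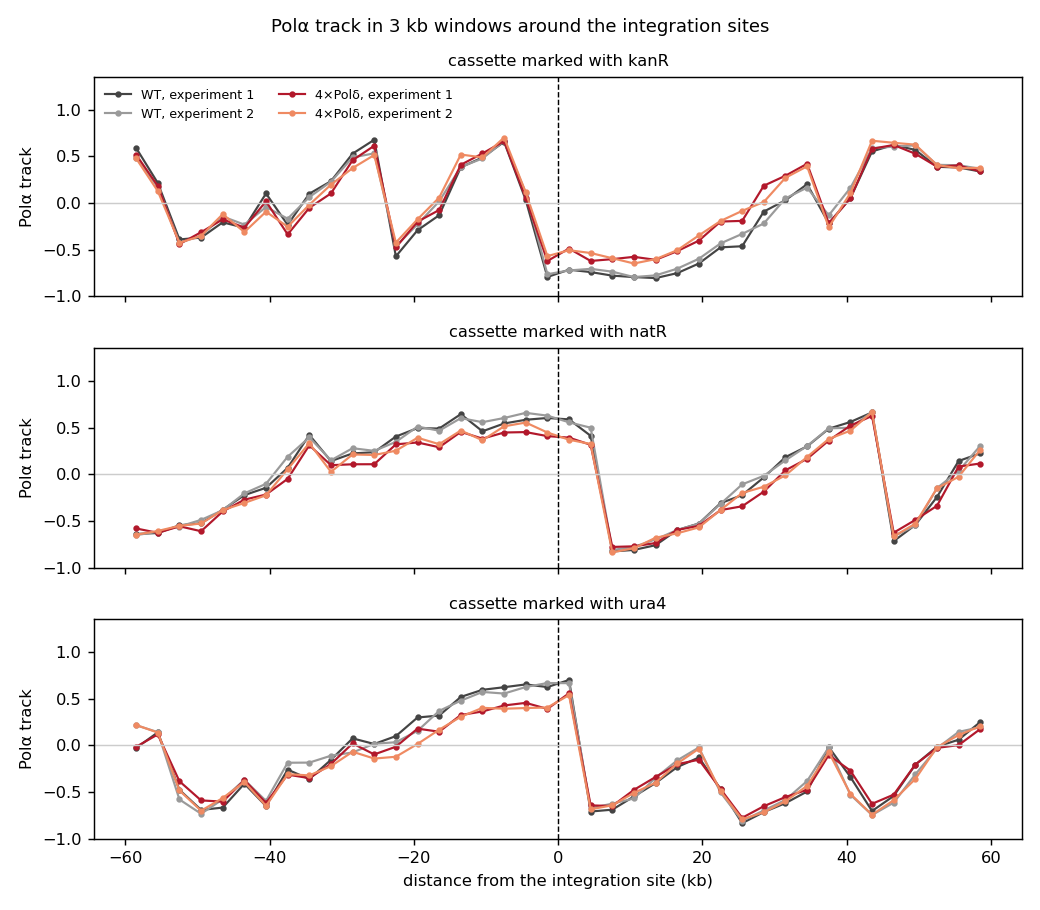
Polα track in 3 kb windows against the distance in kb from the integration site of each cassette (dashed line), for the kanR, natR and ura4 cassettes; each line is 1 library, grey for WT and red or orange for 4×Polδ. Over the first 24 kb right of kanR and left of natR and ura4 the 4×Polδ tracks lie closer to 0 than the WT tracks; from 24 to 36 kb they have passed 0 right of kanR (0.176 and 0.147) and lie below WT left of ura4 (-0.156 and -0.191), and 24 to 36 kb right of natR they lie below WT.

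The 2×Polδ strain holds the ura4 cassette only and was compared at the same places. It shares the WT libraries with the comparison above, so its values are given side by side. Left of ura4, over the first 12 kb, its track was 0.488 and 0.437, between WT and 4×Polδ. From 24 to 36 kb left of ura4 it was not between them, with -0.265 and -0.251. There WT had -0.102 and -0.086, and 4×Polδ had -0.156 and -0.191. Right of kanR, where it has no cassette, it was -0.765 and -0.716 over the first 12 kb, and -0.267 and -0.267 from 24 to 36 kb, where it lay below WT while 4×Polδ lay above WT. Left of natR it was 0.651 and 0.626 over the first 12 kb, above WT by 0.102 and 0.0122, where 4×Polδ lay below WT. The nearest crossing of 2×Polδ lay at -22.0 and -20.4 kb left of ura4 and at -36.8 and -37.5 kb left of natR. Right of kanR it lay at 34.1 and 40.3 kb. The track of 2×Polδ thus also departed from WT beside sites where it has no cassette. Tested directly, the difference of 4×Polδ from 2×Polδ passed in 13 of 17 windows away from the origin at kanR, in 6 of 17 at natR and in 0 of 17 at ura4, where 5.46% of all windows were called. Toward the origin it passed in 4 of 16, 4 of 17 and 2 of 16. With the block it passed in 13, 13 and 2 of the windows away from the origin, where 33.3% of all windows were called, so a call in that fit says little about a site. The Polδ strains had separate WT libraries, and over 30 kb away from the origin their 4×Polδ tracks differed from WT by 0.255 and 0.220 at kanR, -0.159 and -0.131 at natR, and -0.364 and -0.364 at ura4. The Polε strains, in which the leading strand is labelled, differed in the opposite direction, by -0.246 and -0.118, 0.226 and 0.178, and 0.274 and 0.164. A test of the Polα strain's change against that of the Polδ strain called 0 of the 103 windows within 50 kb of a site (edgeR, smallest adjusted p 0.124 without the block and 0.129 with it). Of all windows, 0.143% were called without the block and 0.0239% with it. The lack of calls does not show that the strains changed alike. At ura4 the Polα difference over the same 30 kb was -0.161 and -0.167, smaller than that of the Polδ strains.

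Termination zones are the stretches from one efficient origin to the next, where no weaker origin of 20% or more intervenes. Of those tested 0.671% were called, which is 1 zone. It ran from 3322801 to 3403500 on chromosome I and holds the kanR site. Its mean track was 0.004 and 0.016 in WT and 0.105 and 0.111 in 4×Polδ (difference 0.098, standard error 0.010, limma adjusted p = 0.014). In 2×Polδ it was -0.039 and -0.039. Fits without 1 library lost this call, but they keep only 1 library of a genotype and cannot weigh it. With the block, 10.7% were called (10 higher and 6 lower), and 3 of these 16 zones lay within 50 kb of a site. How many of all tested zones lay that near was not counted, so this share cannot be weighed. A called zone from 5025601 on chromosome I, not within 50 kb of a site, changed by -0.099. The median difference over all zones was -0.001.

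The called windows near chromosome ends formed a few stretches. On the left end of chromosome II, 7 windows between 21001 and 48000 were lower in 4×Polδ, with a mean track of 0.044 and 0.104 in WT and -0.145 and -0.067 in 4×Polδ, and 2×Polδ had -0.068 and -0.00894, also below WT. Farther in, 4 windows between 117001 and 129000 around abc3, which encodes an ABC transporter of the vacuole membrane, were higher, from -0.116 and -0.156 to 0.174 and 0.107. There 2×Polδ had -0.072 and -0.137, close to WT. On the right end of chromosome I, 4 windows between 5541001 and 5556000 were lower, from 0.242 and 0.211 to 0.017 and 0.076, and 2×Polδ had 0.010 and 0.038. All these calls were made with the block only. In the mating-type region the track was -0.293 and -0.221 in WT and -0.251 and -0.219 in 4×Polδ, and 0 of 8 windows were called.

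Total counts differed in the largest share of windows at the copied fragments and the centromeres. In 3 kb windows 0.191% were called with edgeR without the block (8 windows, of which 6 were in copied fragments and higher, and 2 at centromere III and lower), and 53 had an unadjusted p under 0.05. Fits without 1 library, which keep only 1 library of a genotype, lost most or all of these calls. With the block, 3.32% were called, which is 139 windows. Of 59 centromere windows 37 were lower and 1 was higher, whereas elsewhere in the genome 28 of 3701 were higher and 44 lower. In single bins 0 were called without the block (302 had an unadjusted p under 0.05) and 0.84% with it, among them 275 of 566 centromere bins, all lower, and 55 of 60 bins of copied fragments, all higher. Each centromere of fission yeast has a central core, on which the kinetochore forms, between outer repeats packed into heterochromatin.

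Over the whole of centromere III the count density was 1.22 and 0.937 in WT and 0.833 and 0.658 in 4×Polδ. Over centromere II it was 1.27 and 0.907 in WT and 0.890 and 0.648 in 4×Polδ, and over centromere I 1.06 and 0.797 against 0.867 and 0.666. The density differed between experiments, and within each experiment 4×Polδ was lower. Its ratio to WT was 0.819 and 0.836 at centromere I, 0.702 and 0.714 at centromere II and 0.685 and 0.702 at centromere III. The lower density lay mostly outside the middle. In the middle 12 kb the ratios were 1.05 and 1.15, 0.913 and 0.922, and 1.02 and 1.06, and in the rest of each centromere 0.755 and 0.756, 0.655 and 0.668, and 0.640 and 0.662. Lower windows with the block were 8 of 9, 11 of 13 and 16 of 22 outside the middle of centromeres I, II and III, against 0, 1 and 1 of 4 within it. The 37 lower windows had log2 fold changes from -0.97 to -0.23 with a median of -0.72. At single genes, the noncoding RNA genes SPOM_SPNCRNA.5254 at centromere II (log2 fold change -0.95) and SPOM_SPNCRNA.7217 at centromere III (-0.86) were the 2 lower genes called without the block. The handling of reads that map to several repeats is not given in the sources used here, and copy numbers of the repeats were not measured.

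In 2×Polδ the ratio to WT was 1.07 and 0.992 at centromere I, 0.909 and 0.859 at centromere II and 0.909 and 0.859 at centromere III. In the Polδ strains the 4×Polδ ratio was 0.940 and 1.09, 0.957 and 1.11, and 0.963 and 1.13, and in the Polε strains 0.866 and 1.18, 0.724 and 1.00, and 0.898 and 1.27. Of the 37 windows, 26 were also lower in a test of the Polα strain's change against that of the Polδ strain with the block, where 1.17% of all windows were called. Against the Polε strain 14 were lower, where 0.406% were called. Without the block these numbers were 4 and 0. The 37 windows were chosen by the same Polα libraries that these tests use, which favours a lower result. Their shares are therefore no independent support. Among all 59 centromere windows, 26 and 14 were called with the block.

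**Figure D5:**
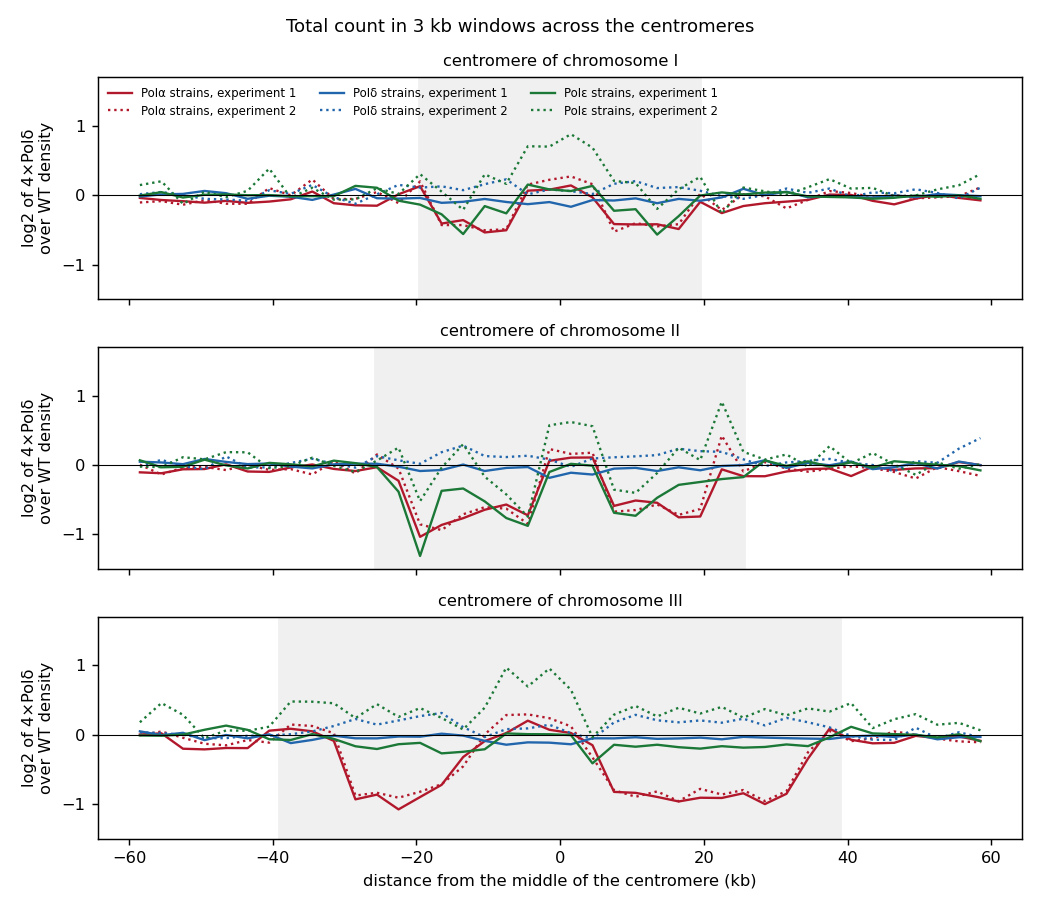
Log2 of the count density of 4×Polδ over that of WT in 3 kb windows against the distance in kb from the middle of each centromere, for the Polα (red), Polδ (blue) and Polε (green) strains; solid lines are experiment 1, dotted lines experiment 2, and the grey band marks the centromere. In the Polα strains both experiments fall below 0 on both sides of the middle and return to near 0 within the middle 12 kb, while the Polδ lines stay near 0 and the Polε lines differ between experiments.

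The ends of chromosome III, where the ribosomal DNA repeats begin, had high densities. The outermost 24 kb on the left had 13.7 and 14.7 in WT and 22.8 and 22.8 in 4×Polδ, and those on the right 7.89 and 8.55 against 11.2 and 11.9. In 2×Polδ the left end had 26.9 and 18.4, so that its 2 libraries lay on both sides of 4×Polδ. In these outermost stretches 0 of 8 windows on either side were called, with or without the block (smallest adjusted p with it 0.219 and 0.233). In the other strains the ratio of 4×Polδ to WT on the left was 0.685 and 0.931 (Polδ) and 0.456 and 1.00 (Polε), against 1.67 and 1.55 in the Polα strains. The 50 kb at the right end of chromosome II had 1.90 and 1.64 in WT and 2.15 and 2.15 in 4×Polδ. No window of a chromosome end was called without the block; with it, 8 of 103 were, all higher. Among genes called with the block, 31 within 50 kb of an end were higher and 1 was lower, and the higher ones included 9 rRNA genes and the telomere-linked helicase genes tlh1 and tlh2. Such genes have near-identical copies, so the counts of single copies are uncertain.

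A stretch of chromosome II from 93001 to 102000, with SPOM_SPBPB10D8.05C, SPOM_SPBPB10D8.06C and SPOM_SPBPB10D8.07C, was lower in 4×Polδ with the block, with a density of 0.723 and 0.487 in WT and 0.526 and 0.376 in 4×Polδ. In 2×Polδ it was 1.05 and 0.683. The arms of the chromosomes, without the outer 150 kb and the centromere, had ratios of 4×Polδ to WT between 0.973 and 1.02.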

How the data were processed

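Pu-Seq counts of 6 samples (WT and 4×Polδ, Polα strains) were analysed, with 3 of 2×Polδ in the same fits. Per the labels and methods, the authors mapped NextSeq 500 reads with Bowtie2 (build named in the submitters' processing notes: ASM294v2). They deposited whole-number counts of ribonucleotides per strand in 300 bp bins, without normalization. The sources used here give neither the Bowtie2 version nor how multiply mapped reads were treated. The last bins lie at the ends of the RefSeq chromosomes. Gene names come from the RefSeq annotation of ASM294v3, at bin resolution only, since the builds differ in name.

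The runs of experiment 1 were summed. Strand ratios (strand-by-genotype term) and totals (TMM scaling) were tested with edgeR 4.0.16 quasi-likelihood fits in R 4.3.3, with at least 10 counts in every library. Origins and zones were tested with limma 3.58.1, and single values by two-sided exact permutation. Adjustment was by Benjamini-Hochberg over all features. The tests were checked on simulated data with known large changes. The simulation held no difference between experiments, so it does not show how calls with or without the block behave. Python 3.11.15 (numpy 2.4.6) gave tracks and densities. Experiment numbers from the labels pair the libraries: deviations from genotype means correlated with r = 0.854 between WT and 4×Polδ, 0.838 between WT and 2×Polδ and 0.843 between 2×Polδ and 4×Polδ over 41883 bins. Nothing in the labels says how separate the cultures were. The paper calls the 2 Pu-Seq experiments independent and the repeats biological. The p-values measure the spread between these libraries.

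Alternatives were the block, DESeq2 1.42.0, other count minimums, scalings, window sizes and origin calls, and left-out libraries. Tests against the Polδ and Polε strains, and the block with 4 libraries only, were added after seeing the data. Named items are the altered genes and integration sites of the strains, act1, a replication gene list, centromeres, ends, the mating-type region, the 3 most efficient origins and, for each test, up to 5 features with the smallest p. Where any feature passed, these were taken from passing features with the same sign in both experiments. Members and lists were chosen with earlier results of these data known. Stretches at ends, the genes at 93001 on chromosome II, rfc5, neighbours of copied genes and zones were named after their values were seen.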

Additional observations from a re-analysis of the deposited data

Results flagged for a closer look

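Each genotype had 2 libraries, so no library could be tested as an outlier. Differences between strains were tested as the change from WT to 4×Polδ in the Polα strain against that in the Polδ or Polε strain, with experiment as a block. For total counts against the Polδ strain, 26 centromere windows, 4 windows 50 to 150 kb from an end and 19 windows of chromosome II from 4161001 to 4218000 differed. In the last segment the 4×Polδ strain for Polδ had nearly doubled counts, and the Polα strain did not. Without the block, 4 centromere windows, 0 windows 50 to 150 kb from an end and 16 of the segment differed. Against the Polε strain, 14 centromere windows and 3 windows 50 to 150 kb from an end differed with the block, and 0 without it. For strand ratios against the Polδ strain, 1 window of the mating-type region differed with the block and 4 of 8 without it. Over that region the 4×Polδ track differed from WT by 0.043 and 0.002 in the Polα strains. In the Polδ strains it differed by 0.612 and 0.601. Without the block, 1 window within 50 kb of an end and 1 elsewhere also differed in strand ratio. In these windows the change in the Polα strain was the lower one, with 3 exceptions. They were 1 of the 4 windows 50 to 150 kb from an end and the 2 strand-ratio windows outside the mating-type region. A lower change in this sense need not be a fall in the Polα strain itself. The cause was not tested.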

How the results depend on the processing

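The number of calls depended on whether experiment was a replicate block, alone or in a fit without the 2×Polδ libraries (the latter chosen after seeing the data). Called strand-ratio bins were 0, and 155 with the block, 508 with the block and 4 libraries, and 21 with DESeq2. Called total-count bins were 0, and 352, 697 and 190 under the same settings. Called strand-ratio windows were 3, and 53, 481 and 71, with 6 of the 4 libraries without the block and 14 in windows of 9 kb. Called total-count windows were 8, and 139, 604 and 33, with 5 of the 4 libraries without the block. Called genes were 15, and 179, 558 and 66, with 8 of the 4 libraries without the block. Called origins were 1, and 3 with the block, 41 with the block and 4 libraries, and 0 on unsmoothed tracks. Called zones were 1, and 16 with the block, 39 with the block and 4 libraries, and 0 with 4 libraries without it. The cause of these changes was not tested. The amplitude difference at origins, -0.006, was 0.00317 with flanks of 0.3 to 1.5 kb, -0.0135 with flanks of 3 to 6 kb and 0.00505 without experiment 1. The track correlation was 0.985 over a moving average of 3 bins and 0.990 in 3 kb windows. Fits without 1 library lost most or all calls of every kind. They keep only 1 library of a genotype, so a lost call does not measure how robust a feature is. With either experiment left out, the copy ratio ranged from 3.69 to 3.79. The lagging-strand difference then ranged from -1.5 to -0.366 points and the amplitude difference from -0.0171 to 0.00505. Other count minimums, scalings and the first run of experiment 1 alone gave counts within 1.5 times the main ones. Of the features named by smallest p, 0 reversed under the alternatives tried. Where any passed, they had been picked with the same sign in both experiments, so this count is no independent support. In the library with the fewest counts the median bin held 379, which limits single bins more than windows.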
